A study of Mus musculus with 8 samples.

Results

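The 10 genes described here mark enteroendocrine cells, the hormone-secreting cells of the gut epithelium. They were chosen by name and not by their values, and all 10 were found among 21887 protein-coding genes of the RefSeq annotation of mouse build GRCm38.p6. They are the transcription factors Neurog3 and Neurod1, the granule proteins Chga and Chgb, the serotonin-synthesis enzyme Tph1, and the hormone genes Gcg, Gip, Cck, Sct and Pyy. The tissue was crypts of the small intestine, labelled as epithelial cells, from 9-week-old male C57BL/6J mice. H3K27ac and H3K9ac, acetylations of histone H3 found at active promoters and enhancers, were profiled by CUT&Tag, a method that uses an antibody-guided transposase to cut out and sequence DNA near a mark. Mice were fed (Fed) or fasted for 24 h (Fast), each without (−Tet) or with (+Tet) 21 days of tetracycline, an antibiotic. This gave 4 groups per mark, each with 1 sample and 2 peak lists, called list 1 and list 2. The labels do not say whether these lists came from separate mice or how many mice a sample holds, so p-values measure only the spread between lists, which may be technical. Per the title of the series, the study asked how fasting, the microbiome and chromatin relate in intestinal regeneration.

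Enteroendocrine cells arise from crypt progenitors that pass through a brief phase of Neurog3 expression, and later factors such as Neurod1 carry them to hormone-producing fates. Mature cells store hormones in dense-core granules built on chromogranins and release them in response to food. They are a rare cell type, so in bulk crypts their chromatin is mixed with that of far more numerous stem, progenitor and absorptive cells, and fewer such cells and less of the mark per cell cannot be told apart.

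Promoters of 5 members are shown because the results turn on where peaks lay relative to their start sites. Each is the 250 bases before the start site, from RefSeq for GRCm38.p6, 5′ to 3′ along the gene's strand. Capitals mark E-boxes (CANNTG, the core motif bound by basic helix-loop-helix factors such as Neurog3 and Neurod1) and TATAAA on either strand. The Sct promoter (chr7:141279134-141279383, minus strand), the only one under an H3K27ac peak in all 8 lists, held 3 E-boxes and 1 TATAAA. The Gcg promoter (chr2:62483654-62483903, minus strand), under a peak of neither mark in any list, also held 3 E-boxes and 2 matches to TATAAA. The Gip (chr11:96024295-96024544, plus strand) and Chga (chr12:102554691-102554940, plus strand) genes had H3K27ac at the 3′ end and not at the start. The Neurog3 promoter (chr10:62132840-62133089, plus strand) belongs to the only member at whose locus each Fast list exceeded both Fed lists of its tetracycline state for both marks. Of all genes, 8.51% were higher in Fast in this sense for H3K27ac and 5.38% for H3K9ac. No share is given for both marks together, so this is not read as particular to Neurog3.
Sct: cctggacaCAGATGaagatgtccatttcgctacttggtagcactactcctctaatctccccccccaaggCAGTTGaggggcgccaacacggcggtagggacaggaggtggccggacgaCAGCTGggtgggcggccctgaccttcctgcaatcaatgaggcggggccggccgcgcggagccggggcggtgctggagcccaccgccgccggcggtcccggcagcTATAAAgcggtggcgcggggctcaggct
Gcg: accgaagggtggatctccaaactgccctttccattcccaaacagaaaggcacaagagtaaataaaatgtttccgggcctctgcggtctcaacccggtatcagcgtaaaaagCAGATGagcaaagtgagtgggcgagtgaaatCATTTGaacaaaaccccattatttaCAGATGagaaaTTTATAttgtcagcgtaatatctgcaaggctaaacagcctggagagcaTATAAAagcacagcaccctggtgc
Gip: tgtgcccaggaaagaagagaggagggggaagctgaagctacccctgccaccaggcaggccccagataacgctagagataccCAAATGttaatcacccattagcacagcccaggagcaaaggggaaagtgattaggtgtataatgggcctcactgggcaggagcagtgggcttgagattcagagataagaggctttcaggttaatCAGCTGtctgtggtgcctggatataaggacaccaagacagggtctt
Chga: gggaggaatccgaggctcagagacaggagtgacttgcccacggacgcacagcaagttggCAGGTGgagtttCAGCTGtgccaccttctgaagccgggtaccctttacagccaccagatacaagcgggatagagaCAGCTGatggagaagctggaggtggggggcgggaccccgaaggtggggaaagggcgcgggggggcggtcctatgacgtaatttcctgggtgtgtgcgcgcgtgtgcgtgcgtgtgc
Neurog3: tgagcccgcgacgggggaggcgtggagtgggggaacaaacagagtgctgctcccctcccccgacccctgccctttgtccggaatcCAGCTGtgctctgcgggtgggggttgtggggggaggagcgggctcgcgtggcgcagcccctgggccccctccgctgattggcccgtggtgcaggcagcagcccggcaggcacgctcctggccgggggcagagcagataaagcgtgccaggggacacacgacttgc

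The motifs did not set the members apart in a single way. The E-box CANNTG lay in the promoter of 9 of 10 members, Tph1 being the exception, and in 62.8% of 21263 promoters of this length. CAGCTG, one form of it, occurred at Chga, Gip, Neurog3 and Sct and in 12.1% of all promoters, and CAGATG, another form, at Cck, Gcg and Sct and in 12.4%. TATAAA was found at Gcg and Sct and in 11.6% of all promoters. The cyclic AMP response element TGACGTCA was found at Chgb and in 1.92%. The GC box GGGCGG lay at Chga, Chgb, Neurod1, Sct and Tph1 and in 42.6%, the GATA motif AGATAA at Cck, Gip and Neurog3 and in 8.81%, and the forkhead motif TGTTTAC at Cck and in 2.62%. Both strands were searched, and CAGCTG and CAGATG are also counted as CANNTG. These are matches of letters and not measured binding sites.

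The lists differed widely in size, which touches every count that follows. H3K27ac lists held 32392 to 68545 peaks and H3K9ac lists 17249 to 99050, and for each mark the longest lists were Fast list 1 without and with tetracycline. Peaks of the narrowest width, 200 bp, made up 17.2% and 20.3% of those 2 H3K9ac lists and 31.2% of H3K9ac Fast +Tet list 2, which is not among the longest. For H3K27ac they made up 11.8% of Fast −Tet list 1 and at most 0.862% of each other list. Markers of the labelled cell type were present, as all 10 general epithelial genes, such as Epcam and Vil1, had H3K27ac at a gene end in all 8 lists. Enteric neuron genes matter here because neurons share granule and peptide genes with enteroendocrine cells. Of 10 such genes, 0 had H3K27ac in all 8 lists, 2 in some and 8 in none. For H3K9ac the numbers were 0, 8 and 2, against 1, 8 and 1 for the members. Of 10 immune genes 1 had H3K27ac in all 8 lists and 6 in some. The mean was 3.75 immune genes per Fed list and 5.75 per Fast list (pooled SD between lists of a group 0.87). The means were 4.75 and 6.5 for 10 goblet cell genes, 1.25 and 0.5 for the enteric neuron genes, and 0.75 and 0.75 for 10 mesenchyme genes. The immune difference is thus not read as particular to immune genes. For H3K9ac 0 immune genes were marked in all 8 lists and 9 in some, with means of 2 and 3.25 (pooled SD 1.84). Of 10 mesenchyme genes, 2 had H3K27ac and 5 H3K9ac in some lists, and the others in none. The part of these cell types in the results on the members was not tested.

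H3K27ac was found at few of the enteroendocrine genes. Marking was counted at either end of a gene, with peaks up to 1 kb away. Sct was marked in all 8 lists, Chga and Gip in 7 each, Neurod1 and Tph1 in 1 each, and Neurog3, Chgb, Gcg, Cck and Pyy in none. Thus 1 of 10 members was marked in all 8 lists, where 33.6% of all genes were, and 5 of 10 in none, where 39.4% of all genes were. When only start sites were counted, Sct was marked in all 8 lists, Neurod1 in 1, and the other 8 members in none. Among the 17492 genes with a listed start site, 34.5% had H3K27ac there in all 8 lists and 40.8% in none.

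H3K9ac was called at more members but less steadily. Sct was marked at a gene end in 8 lists, Gip and Cck in 4 each, Neurog3, Chga, Tph1 and Pyy in 2 each, Neurod1 and Chgb in 1 each, and Gcg in none. In all, 1 of 10 members was marked in every list and 1 in none, against 21.1% and 25.2% of all genes. At start sites, 0 members were marked in all 8 lists and 4 (Chga, Chgb, Gcg and Gip) in none, against 21.5% and 30.0% of all genes. Of the 28 H3K9ac peaks at ends of members, 14 came from the 2 Fast lists 1. Of 17 within gene bodies 12 did, and of 39 peaks of 200 bp at the loci 28 did. These 2 lists were also the longest for H3K9ac, with 99050 and 97764 peaks against 17249 to 54158 in the others. They gave 157 of all 368 H3K9ac peaks at the loci, so these counts are not read as particular to the members.

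**Figure D1:**
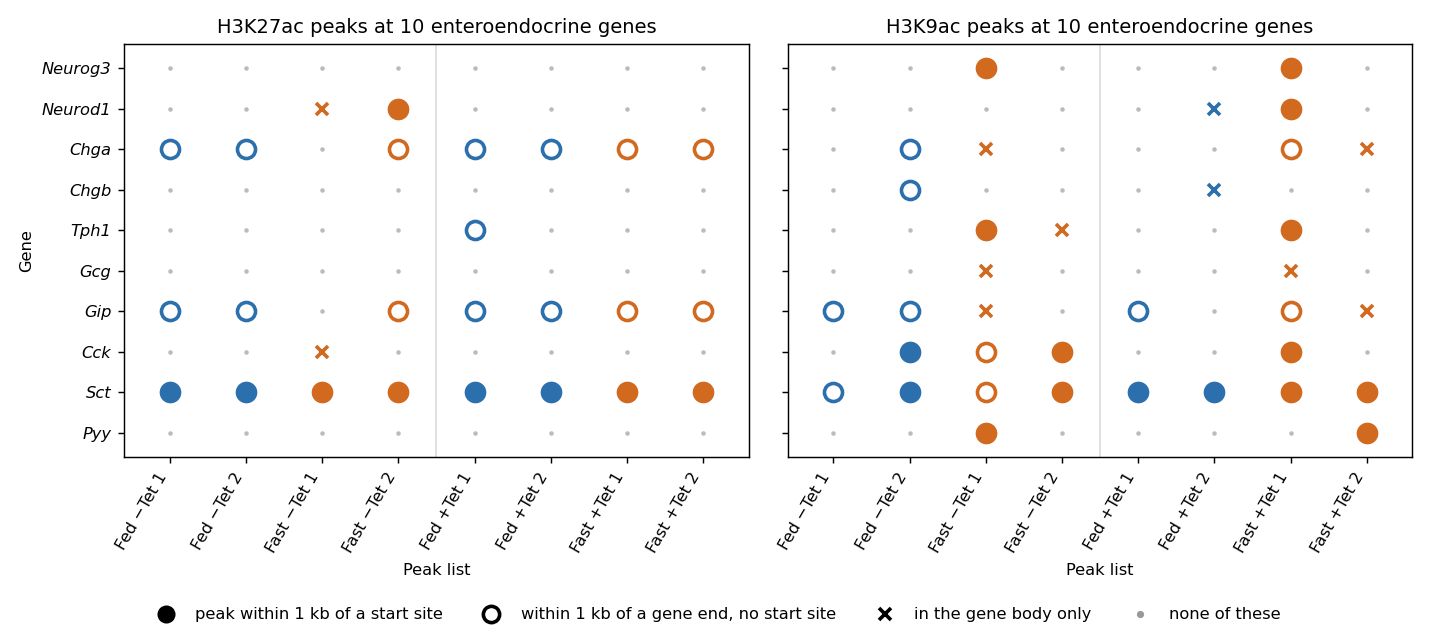
Each symbol shows where a gene (rows) had a peak in a list (columns), for H3K27ac on the left and H3K9ac on the right, with Fed lists in blue and Fast lists in orange. Sct carries H3K27ac at its start site in all 8 lists, and Chga and Gip only at the other end in 7 lists. Most H3K9ac symbols of the remaining genes fall in the columns of Fast list 1, the longest H3K9ac lists.

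Secretin, encoded by Sct, is the S-cell hormone that drives bicarbonate secretion by the pancreas. Its H3K27ac peak was among the strongest of each list. Ranked by score within its list, the peak stood at percentile 99.9 and 98.1 in the Fed −Tet lists, 99.7 and 98.3 in the Fast −Tet lists, 98.9 and 97.2 in the Fed +Tet lists, and 98.8 and 98.3 in the Fast +Tet lists. The groups overlapped, and no list stood apart. In Fed −Tet list 2, both Fast −Tet lists and Fed +Tet list 2 the score was 3100, its highest value at Sct. In Fed −Tet list 2 and Fed +Tet list 2 a peak near Cck tied with that of Sct. Ranks in such lists thus also depend on how many peaks share the score. The peak was 3756 to 4618 bp wide, while the gene itself spans 846 bp (chr7:141278329-141279174). It also covered the start site of Cdhr5, a cadherin of the brush border of absorptive cells, which lies 2.35 kb downstream of that of Sct on the same strand. The start-site base of each gene lay under H3K27ac in 8 lists. H3K9ac covered the start-site base of Sct in 6 lists and that of Cdhr5 in 7. In Fed −Tet list 1 and Fast −Tet list 1 the H3K9ac peak covered only Cdhr5, and in Fast +Tet list 1 only Sct. The peaks at Sct in most lists therefore span 2 promoters, and the share of each gene in them was not tested.

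Gip and Chga shared another pattern. Gip encodes the incretin hormone of K cells, and Chga encodes chromogranin A, the general granule marker of endocrine cells. Their H3K27ac lay at the 3′ end: the merged region at Gip was chr11:96030181-96031589, centred 6.34 kb from the start site, and that at Chga was chr12:102564015-102565830, centred 9.98 kb from it. At Gip the peak ranked at percentile 70.1 and 90.2 in the Fed −Tet lists, 60.3 and 88.1 in the Fed +Tet lists and 86.4 and 73.7 in the Fast +Tet lists. In the Fast −Tet group it ranked at 90.9 in list 2 and was not called in list 1. At Chga the values were 51.4 and 66.7 for Fed −Tet, 20.7 and 53.7 for Fed +Tet, 35.8 and 64.8 for Fast +Tet, and 71.7 for Fast −Tet list 2, again with no peak in Fast −Tet list 1. Both genes thus lacked the mark in the same list, Fast −Tet list 1, and Fed and Fast overlapped otherwise. That list held the most H3K27ac peaks of all 8, and 11.8% of its peaks were only 200 bp wide. In each other H3K27ac list at most 0.862% were, and whether this bears on the missing peaks was not tested. H3K9ac at the same place was called in 4 lists at Gip (3 Fed, 1 Fast) and in 2 at Chga (1 Fed, 1 Fast). Downstream of Gip, a region at the end of Snf8, an endosomal sorting gene, held H3K27ac in 6 lists.

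**Figure D2:**
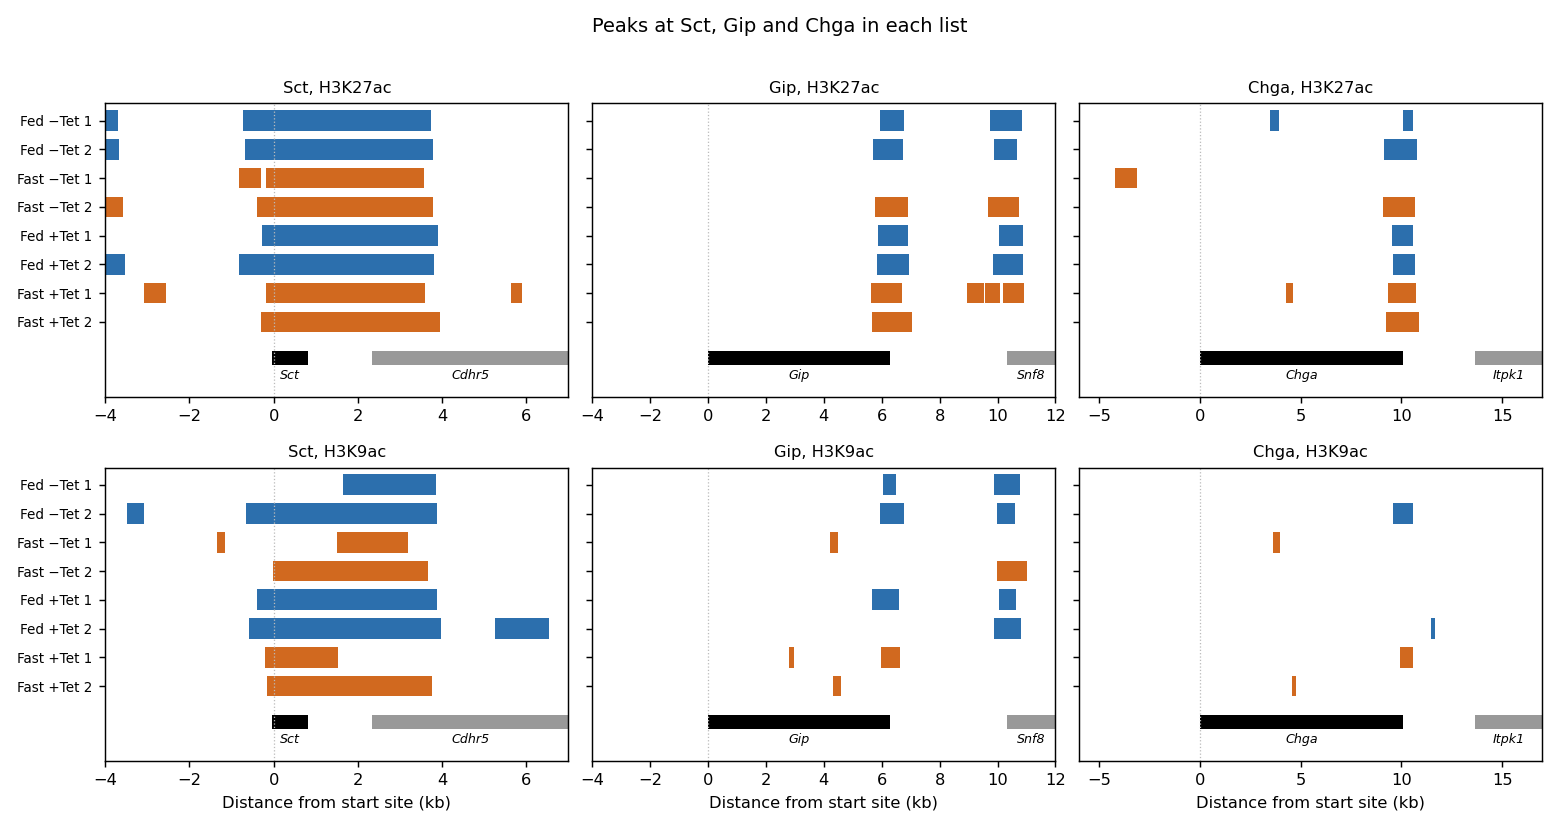
Peaks (bars) of each list along Sct, Gip and Chga, by distance from the start site in kb, with the member in black and neighbours in grey below, Fed lists in blue and Fast lists in orange. The Sct peak spans the start of Cdhr5 as well, and the peaks at Gip and Chga sit at the 3′ end, with none in Fast −Tet list 1.

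The other hormone genes carried sparse calls. Cck, the hormone of gallbladder contraction and satiety, had no H3K27ac at an end, and H3K9ac at its start site in Fed −Tet list 2, Fast −Tet list 2 and Fast +Tet list 1. With its 3′ end counted too it was marked with H3K9ac in 4 lists, where the best-scoring gene-end peak ranked between percentiles 4.85 and 81.0. Pyy, a satiety hormone of L cells, had H3K9ac near its start in Fast −Tet list 1 and Fast +Tet list 2, at percentiles 3.43 and 28.8. Gcg, the precursor of glucagon-like peptides, had no gene-end peak of either mark, and only H3K9ac within the gene in both Fast lists 1. Tph1, which makes the precursor of serotonin in enterochromaffin cells, had H3K9ac at a start site in the same 2 lists and H3K27ac at its 3′ end in Fed +Tet list 1, at percentile 13.5. Chgb, a second chromogranin, had 1 H3K9ac call, at its 3′ end in Fed −Tet list 2. The ranks of these calls ran from low to high, and each gene lacked the mark in at least 1 list of both feeding states.

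Of the transcription factors, Neurod1 had H3K27ac near its start in Fast −Tet list 2, at percentile 7.82, and H3K9ac in Fast +Tet list 1. Neurog3 had no H3K27ac at either end and H3K9ac in Fast −Tet list 1 and Fast +Tet list 1, at percentiles 70.6 and 30.3. Neither peak covered the start-site base of Neurog3.

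By list, the number of members with H3K27ac at a gene end was 3 and 3 for Fed −Tet, 1 and 4 for Fast −Tet, 4 and 3 for Fed +Tet, and 3 and 3 for Fast +Tet. The means were 3.25 in Fed and 2.75 in Fast lists, a difference within the spread between lists of a group (pooled SD 1.12, 4 groups of 2 lists). For H3K9ac the numbers were 2 and 5, 5 and 2, 2 and 1, and 7 and 2, in the same order, with means of 2.5 in Fed and 4 in Fast lists and a pooled SD of 2.35. The H3K9ac difference came from lists 1: leaving out lists 1 of all groups changed it from 1.5 to -1. No member was marked in every Fast list and no Fed list, or the reverse. Such genes were rare throughout: 0.0959% of all genes for H3K27ac in Fast only and 0.0137% in Fed only, and 0.0777% and 0.0411% for H3K9ac.

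Other genes of the enteroendocrine program, 48 in a list that excludes the members, were also sparsely marked with H3K27ac. For this mark, 3 of 48 were marked in all 8 lists, 14 in some and 31 in none. The shares of all genes were 33.6% in all 8 lists and 39.4% in none. For H3K9ac the numbers were 2, 30 and 16, so most of the 48 were marked in some lists. Here 21.1% of all genes were marked in all 8 lists and 25.2% in none. Among 14 transcription factors, Foxa1, a forkhead factor, was marked with H3K27ac in 8 lists, Foxa2, its relative, in 4 and Mnx1, a homeobox factor, in 2. Among 8 hormones and peptides only Ghrl, which encodes ghrelin, had H3K27ac at a gene end, in 7 lists. At a listed start site Ghrl was marked in 2. Among 13 genes of granules and hormone processing, Ddc, which completes serotonin synthesis, was marked in 8 lists, Slc18a1, a vesicular monoamine transporter, in 7 and Vgf, a granin-like protein, in 3. Among 13 receptors and channels, Slc5a1, the glucose transporter SGLT1, was marked in 8, Ffar4, a fatty acid receptor, in 2 and Glp1r, the receptor of glucagon-like peptide 1, in 1. Foxa1, Ddc and Slc5a1 are also expressed by other cells of the intestinal epithelium. None of the 48, and none of the members, was marked in at least 3 more lists of a feeding state than of the other. Over all genes, 0.841% were so in favour of Fast and 0.256% in favour of Fed for H3K27ac, and 1.04% and 0.726% for H3K9ac. For comparison, of 10 goblet genes 2 had H3K27ac in all 8 lists and 8 in some, and of 10 tuft genes 3 in some and 7 in none.

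**Figure D3:**
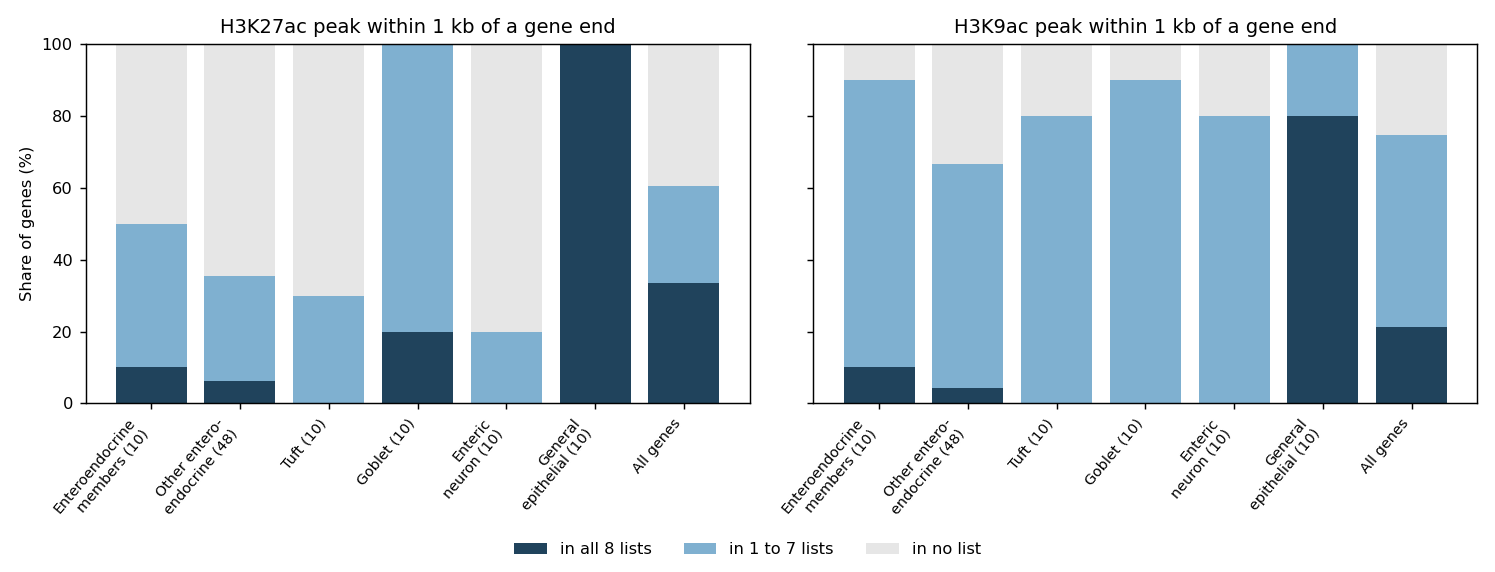
Bars give the share of genes (%) with a peak within 1 kb of a gene end in all 8, in 1 to 7 or in no list of H3K27ac (left) or H3K9ac (right), for lists of cell-type genes and all genes. All general epithelial genes carry H3K27ac in every list, against 1 of 10 enteroendocrine members and 3 of the 48 other enteroendocrine genes. Of all genes 33.6% do.

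Most peaks at the loci lay in the flanks, which also made up most of each locus. The genes spanned 846 bp (Sct) to 27897 bp (Tph1), against 50 kb of flank on each side. No share over all genes is given, so this is not read as particular to the members. Of 308 H3K27ac peaks at the 10 loci, each the gene with 50 kb on both sides, 25 were at gene ends, 5 in gene bodies and 278 in flanks, and 84 of the flank peaks lay at an end of another gene. Of 368 H3K9ac peaks, 28 were at gene ends, 17 in bodies and 323 in flanks, 108 of them at another gene's end. The share of a locus under H3K27ac had a median over the 8 lists of 13.9% at Sct, 9.31% at Chga, 5.13% at Gip, 4.33% at Pyy, 3.79% at Cck, 1.19% at Neurog3, 0.961% at Gcg, 0.859% at Chgb, 0.608% at Neurod1 and 0.584% at Tph1. Neighbours in this order overlapped in every case, for example Sct (10.9 to 15.9%) and Chga (4.21 to 13.8%). For H3K9ac Sct led at 11%, followed by Pyy at 4.78%, Gip at 4.72%, Cck at 2.74%, Chga at 2.59%, Chgb at 1.48%, Neurog3 at 1.38%, Tph1 at 1.33%, Neurod1 at 0.334% and Gcg at 0.

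Peaks of the 8 lists were merged into regions. The loci held 95 H3K27ac regions, of which 14 (14.7%) were common to the 8 lists and 52 (54.7%) came from a single list. Over the genome these shares were 14.6% and 53.1%. Of the 222 H3K9ac regions 5 (2.25%) were common to the 8 lists and 170 (76.6%) came from a single list, against 1.52% and 84.4% over the genome. The 2 Fast lists 1 supplied 31 of the 52 single-list H3K27ac regions and 98 of the 170 for H3K9ac. They were the longest lists of each mark and gave 93 of the 308 H3K27ac and 157 of the 368 H3K9ac peaks at the loci. At the loci 0 regions were present in all Fast and no Fed lists, or the reverse. Over the genome 0.400% of H3K27ac and 0.0189% of H3K9ac regions were Fast-only in this sense, and 0.0837% and 0.0145% Fed-only.

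Of the 14 constant H3K27ac regions, 1 was the Sct peak, 7 lay at the end of another gene and 6 elsewhere in a flank. The last kind included 1 near Sct within the transcription factor gene Deaf1, chr7:141315676-141316848, and the best-ranked distal region near Cck, chr9:121455322-121458178, 38.9 kb downstream of the Cck start and within Trak1, a mitochondrial transport gene. It had a median percentile of 95.3 (range 89.5 to 98.1) and held H3K9ac in 6 lists. Near Chga, chr12:102599192-102603114 and chr12:102604321-102605592, both within the inositol kinase gene Itpk1 and 46.2 and 50.02 kb downstream, had medians of 49.9 and 58.3 and H3K9ac in 5 and 3 lists. The region chr2:62440742-62441704, in no annotated protein-coding gene and 42.4 kb downstream of the Gcg start, had a median of 38.7 and H3K9ac in 1 list. The region chr7:46722144-46724743, 50.9 kb upstream of Tph1, had a median of 61.6 and H3K9ac in none. Which gene any of these serves was not measured.

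The constant regions at other genes' ends sat near Sct (at Phrf1, Irf7 and Tmem80), near Gip (at Ube2z and Atp5g1), near Chgb (at Mcm8 and Trmt6, whose ends share a region) and near Pyy (at Nags, a urea cycle enzyme). The Nags region, chr11:102144349-102147163, had a median percentile of 95.3. Next to it chr11:102141962-102144147, 35.2 kb upstream of Pyy, was called in 7 lists. At Tph1 the recurrent H3K9ac region was chr7:46710118-46711148 at Saal1, in 7 lists. Near Neurod1 no region reached 6 lists: the most frequent, chr2:79402371-79403424 within Cerkl, held H3K27ac in 5.

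Feeding was then compared by covered length, the kb under peaks at each locus. No gene can pass 0.05 in this design, since the smallest exact two-sided p is 0.056. At Neurog3 Fast lists exceeded Fed lists within each tetracycline state for both marks. For H3K27ac the Fed −Tet lists covered 0 and 0 kb, the Fast −Tet lists 3.21 and 1.18 kb, the Fed +Tet lists 0 and 1.24 kb, and the Fast +Tet lists 2.58 and 1.38 kb. Fast list 1 was the highest in both states, and pooled over states Fed +Tet list 2 exceeded Fast −Tet list 2. The mean difference was 1.77 kb (pooled SD between lists 0.94 kb, 2 lists per group; exact permutation p = 0.056, adjusted 0.63). In the same sense 8.51% of all genes were higher in Fast for H3K27ac and 0.265% lower. For H3K9ac the Neurog3 values were 0.80 and 1.17 kb in Fed −Tet, 2.83 and 1.60 kb in Fast −Tet, 1.20 and 0.81 kb in Fed +Tet, and 3.41 and 2.41 kb in Fast +Tet lists. Here all 4 Fast lists exceeded all 4 Fed lists. The difference was 1.57 kb (pooled SD 0.59 kb; exact permutation p = 0.056, adjusted 0.87), and 5.38% of all genes were higher and 0.429% lower in this way. With all lists cut to an equal number of top-scoring peaks, the H3K9ac difference turned to -0.51 kb and the H3K27ac difference was 1.09 kb.

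What recurred at the Neurog3 locus lay away from the gene. The most frequent H3K27ac region, chr10:62109977-62111793, centred 22.2 kb upstream, was found in 1 Fed and 4 Fast lists and covered both listed start sites of Fam241b. The corresponding H3K9ac region was found in 3 Fed and 2 Fast lists. With flanks of 20 kb the H3K27ac difference at Neurog3 was 0, because every H3K27ac peak of the locus lay farther out. This setting thus does not separate the Fam241b region from the other H3K27ac peaks, which came only from Fast lists 1. Of the 7 H3K27ac and 22 H3K9ac regions at the locus, 5 and 20 were in a single list.

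**Figure D4:**
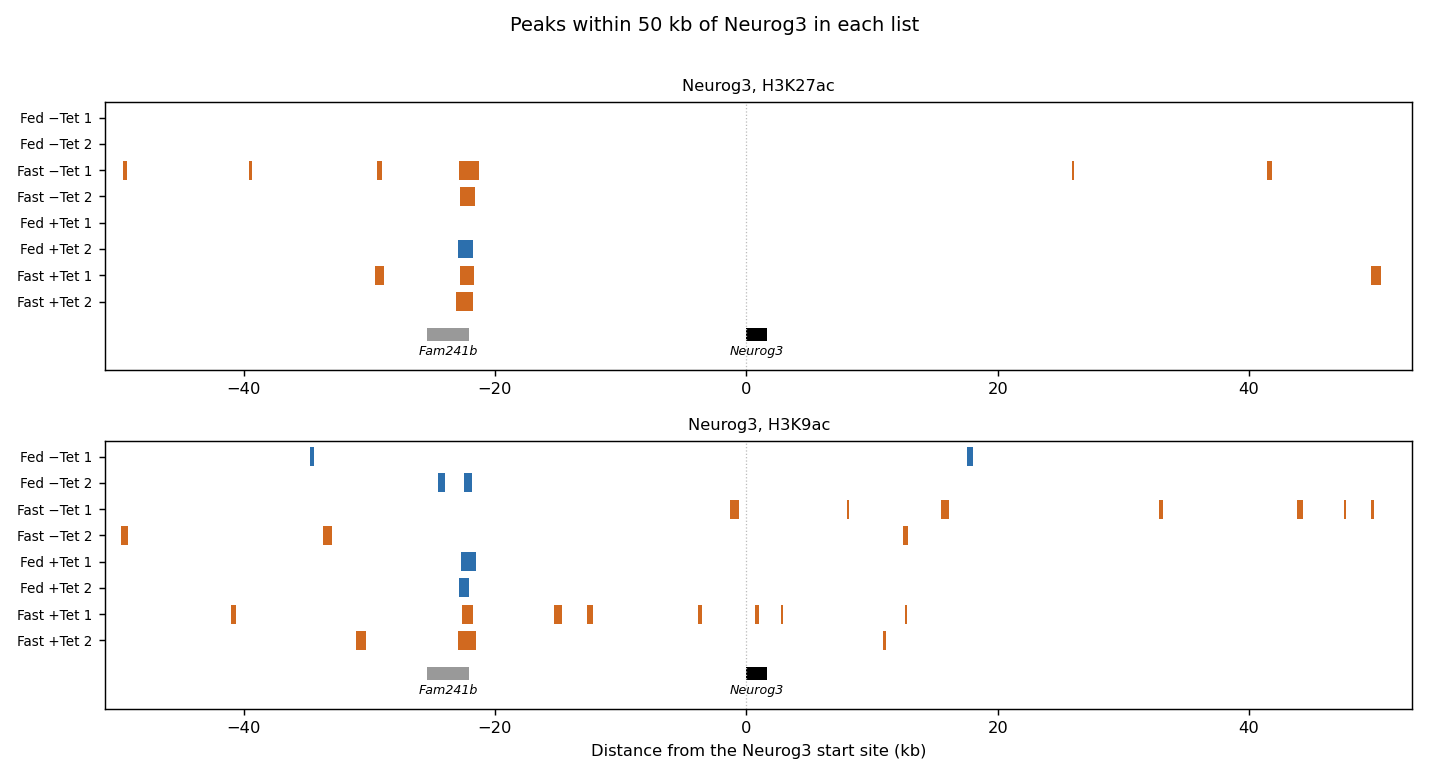
Peaks (bars) of each list within 50 kb of Neurog3 for H3K27ac (top) and H3K9ac (bottom), by distance from its start site in kb, with Fed lists in blue and Fast lists in orange. The recurrent bars lie about 22.2 kb upstream at Fam241b, and no H3K27ac bar lies near Neurog3 itself.

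At the other members Fed and Fast lists overlapped in at least 1 tetracycline state. At Chga H3K27ac covered 11.9 and 10.5 kb in Fed −Tet, 4.64 and 10.5 kb in Fast −Tet, 4.95 and 15.2 kb in Fed +Tet, and 6.63 and 10.02 kb in Fast +Tet lists. The Fast mean was 2.69 kb below the Fed mean, less than the pooled SD of 4.37 kb (exact permutation p = 0.39, adjusted 0.98), and the lists of the Fed +Tet group alone spanned the whole range but for 1 list. At Tph1 H3K27ac covered 1.91 and 0.91 kb in Fed −Tet, 0.48 and 0.39 kb in Fast −Tet, 2.60 and 0.64 kb in Fed +Tet, and 0.86 and 0.07 kb in Fast +Tet lists. Fed and Fast lists overlapped only with tetracycline, and the difference was -1.06 kb (pooled SD 0.83 kb; exact permutation p = 0.11, adjusted 0.74). This Tph1 difference was -0.019 kb in the upper 0.5 of each list by score and -0.009 kb with flanks of 100 kb. In Fast +Tet list 2 the only H3K27ac peak lay 52.08 to 49.93 kb upstream of Tph1 and was cut by the edge of the locus. At Sct H3K9ac covered 8.15 and 15.5 kb in Fed −Tet, 7.69 and 10.01 kb in Fast −Tet, 12.2 and 14.4 kb in Fed +Tet, and 9.36 and 12.6 kb in Fast +Tet lists. Fed and Fast overlapped in both tetracycline states, with a difference of -2.65 kb (pooled SD 3.06 kb; exact permutation p = 0.28, adjusted 0.88).

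Over the 10 members the median Fast minus Fed difference was 0.27 kb for H3K27ac, with 6 members higher and 4 lower, and 0.43 kb over all genes. For H3K9ac it was 0.56 kb, with 9 higher and 1 lower, the exception being Sct, and 0.48 kb over all genes. Of all 21887 genes, H3K27ac covered more in Fast lists at 16099 and less at 4053. H3K9ac covered more at 16198 and less at 5198. Ranked among the H3K27ac differences of all genes, Chga, Tph1, Gip and Sct stood at percentiles 0.685, 4.12, 7.94 and 11.7. Neurog3 stood at 81.5 and the other members between Sct and Neurog3. For H3K9ac the members ran from percentile 3.10 (Sct) to 90.8 (Tph1). The median over the members turned sign for H3K27ac when lists were held to the same number of peaks (-0.12 kb). It also turned when they were scaled to their total covered length (-6.16 ppm), and for H3K9ac with the same number of peaks (-0.64 kb).

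**Figure D5:**
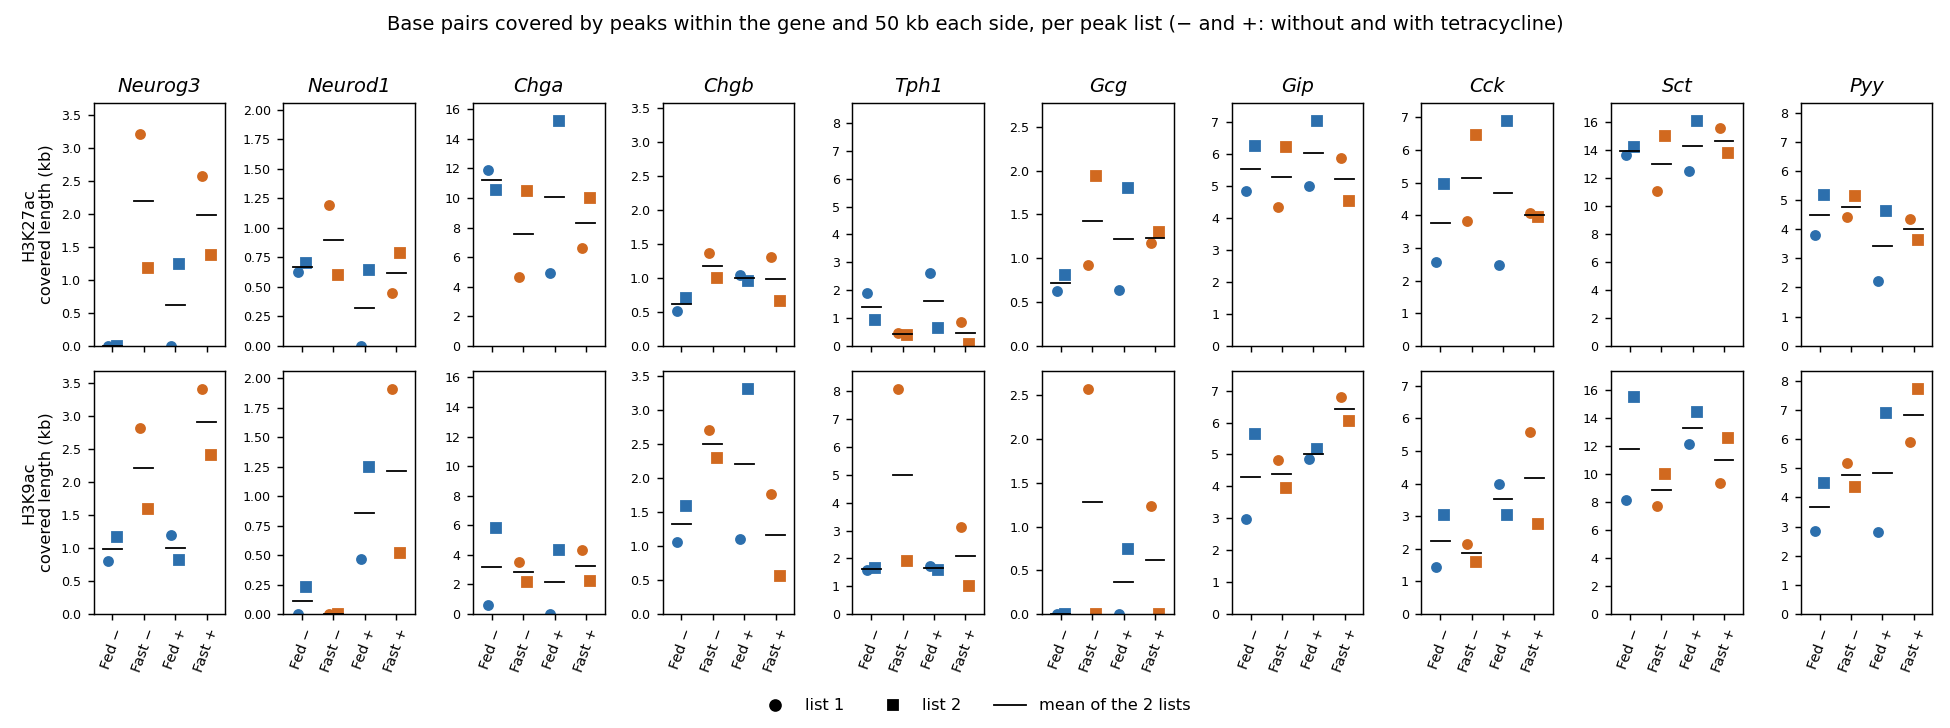
Points give the kb under H3K27ac (top) or H3K9ac (bottom) peaks within each gene and 50 kb on both sides in each list, and lines the mean of the 2 lists of a group, with Fed in blue and Fast in orange, without (−) and with (+) tetracycline. Neurog3 is higher in Fast within each tetracycline state for both marks, and at every other gene Fed and Fast overlap in at least 1 state.

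Tetracycline was compared likewise, separately in fed and fasted mice. At Neurod1 H3K9ac covered 0 and 0.23 kb in Fed −Tet, 0.47 and 1.24 kb in Fed +Tet, 0 and 0 kb in Fast −Tet, and 1.91 and 0.52 kb in Fast +Tet lists, so that all 4 lists with tetracycline exceeded all 4 without. The difference was 0.98 kb (pooled SD 0.57 kb; exact permutation p = 0.056, adjusted 1), but 0.16 kb with equal numbers of top-scoring peaks, 0.26 kb in the upper 0.5 of each list by score and 0.28 kb with peaks at least 500 bp wide. At Cck H3K9ac covered 1.45 and 3.04 kb in Fed −Tet, 3.98 and 3.05 kb in Fed +Tet, 2.15 and 1.59 kb in Fast −Tet, and 5.58 and 2.77 kb in Fast +Tet lists. The lists with tetracycline were higher within each feeding state, by 1.79 kb on average (pooled SD 1.20 kb; exact permutation p = 0.056, adjusted 1), but by -0.053 kb with equal numbers of top-scoring peaks. Over all genes, 0.781% were higher with tetracycline for H3K9ac in this sense and 0.320% lower, and for H3K27ac 0.302% and 2.91%. At the other members, and for H3K27ac at all 10, lists with and without tetracycline overlapped in at least 1 feeding state. The median difference over the members was 0.11 kb for H3K27ac (6 higher, 4 lower) and -0.23 kb over all genes, and 0.67 kb for H3K9ac (6 higher, 4 lower) and 0.10 kb over all genes. Of the 21887 genes, 5540 had a larger length under H3K27ac after the antibiotic and 14588 a smaller one. Under H3K9ac the length was larger at 12438 and smaller at 8934. For H3K9ac most genes and most members were thus higher with tetracycline. For H3K27ac most genes were lower, but the median over the members was smaller than its SD between lists of a group (0.70 kb). The number of members higher for H3K27ac was 0 with flanks of 100 kb, 3 in the upper 0.5 by score and 8 with peaks at least 500 bp wide. The H3K27ac split is therefore not read as a departure from all genes. With equal numbers of top-scoring peaks the H3K9ac value over the members was 0.069 kb. The effect of fasting with minus without tetracycline was also tested at each member, and the smallest exact permutation p was 0.11, at Chgb for H3K9ac (-2.22 kb, adjusted 1).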

How the data were processed

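Chromatin from small intestinal crypts was profiled by CUT&Tag for 2 histone marks in 8 samples, each with 2 peak lists. In the 16 lists the authors deposited, each peak has a position, a name that starts with MACS, and a unit-less score, never below 50. The score is the authors' own and served only to rank peaks within a list. Per the submitters' processing notes, FastQC, Bowtie and SAMtools were used with build mm10. The MACS version, its cutoff and the use of the IgG libraries are not given in the sources used here. Names of the deposited lists contain the word downsampled, and the depth of each list is unknown, so no depth-based interval is given.

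Gene bodies came from a RefSeq table for GRCm38.p6, and strand and start sites from a RefSeq promoter table of the same build. All 10 members were found in both. Peaks on chromosomes 1 to 19, X and Y were kept, which left out 4812 of 820383 lines. A gene end counted as marked when a peak overlapped the 1 kb either side of it by at least 1 bp. Covered length is the number of base pairs under peaks within the gene and 50 kb on each side. Feeding was tested per gene by an exact two-sided permutation of Fed and Fast lists within each tetracycline state, and tetracycline likewise within each feeding state. There are 36 arrangements with a smallest p of 0.056, so no test can pass 0.05. Benjamini-Hochberg adjustment covered 21887 protein-coding genes. The counting and the test were tested on simulated lists with planted peaks. Python 3.11.15, numpy 2.4.6, pandas 2.3.3 and matplotlib 3.10.9 were used.

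The members, the other gene lists and the tests were chosen with earlier results of these data known. All 10 members are named. Other enteroendocrine genes are named if marked in at least 3 more lists of a feeding state than of the other, and up to 3 per role with the most H3K27ac lists. Neighbours are named where a flank peak of at least 6 lists lies at their end, as are at most 2 regions per member and mark that avoid its own ends. The alternatives were the same number of top-scoring peaks per list, the upper 0.5 of each list by score, peaks at least 500 bp wide, windows of 2.5 kb, flanks of 20 and 100 kb, peak midpoints, bridged gaps of up to 500 bp, covered length in ppm of each list's total, and each list left out. Start sites alone, leaving out peaks exactly 200 bp wide, and exchanging only lists of the same number were added after the data were seen. List numbers stand only in the names of the deposited lists. For H3K27ac, differences between lists 1 and 2 in covered length over 21887 genes correlated between all pairs of groups (r from 0.30 to 0.76), which may also reflect list length, so same-numbered lists may be paired.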

Additional observations from a re-analysis of the deposited data

How the results depend on the processing

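Differences over the members changed sign or size with the processing, and the cause was not tested. For members with H3K27ac at a gene end, the Fast minus Fed difference of -0.5 became 0.25 with a window of 2.5 kb and 0.25 with start sites alone, and ranged from -1.5 to 0.5 when lists were left out. It was above 0 without Fast −Tet list 1 or without all lists 1. For H3K9ac it was 1.5, became -1 with the same number of top-scoring peaks, and ranged from -1 to 4 with lists left out, the lowest without lists 1 and the highest without lists 2. The median H3K27ac difference in covered length by feeding, 0.27 kb, became -0.12 kb with the same number of top-scoring peaks, -0.022 kb with peaks at least 500 bp wide and -6.16 ppm when scaled to the covered total, and was 1.18 kb with flanks of 100 kb. It ranged from -0.53 to 0.54 kb with lists left out, below 0 without list 1 of either Fed group, without Fast −Tet list 2 and without all lists 1. By tetracycline it was 0.11 kb, turned to -0.082 kb in the upper 0.5 by score and to -1.18 kb with flanks of 100 kb, and ranged from -0.22 to 0.48 kb, below 0 without Fast −Tet list 1, Fed +Tet list 2 or Fast +Tet list 1. For H3K9ac by feeding the value of 0.56 kb became -0.64 kb with the same number of top-scoring peaks and ranged from -0.44 kb without lists 1 to 1.90 kb without lists 2. By tetracycline the value of 0.67 kb ranged from 0.12 to 1.02 kb with lists left out and dropped to 0.069 kb with the same number of top-scoring peaks, while its sign was the same in every alternative run. H3K27ac regions in all 8 lists fell from 14 to 9 with the same number of top-scoring peaks and to 6 in the upper 0.5 by score, and H3K9ac regions from 5 to 3 with the same number of peaks.

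With lists left out, the difference at Neurog3 ranged from 0.66 to 2.89 kb for H3K27ac and from 1.01 to 2.12 kb for H3K9ac, and that by tetracycline from 0.63 to 1.33 kb at Neurod1 and from 0.60 to 2.98 kb at Cck. At Chga (H3K27ac) it ranged from -5.26 kb without Fed +Tet list 1 to -0.13 kb without Fed +Tet list 2, at Tph1 (H3K27ac) from -1.59 to -0.54 kb and at Sct (H3K9ac) from -4.48 to -0.81 kb. With the same number of top-scoring peaks, Neurog3 (H3K9ac, -0.51 kb) and Cck (H3K9ac, -0.053 kb) reversed. No other reversal occurred at these genes, but several differences shrank. Neurod1 (H3K9ac) dropped to 0.16 kb with the same number of top-scoring peaks. Tph1 (H3K27ac) was -0.019 kb in the upper 0.5 by score and -0.009 kb with flanks of 100 kb. Chga (H3K27ac) was -0.26 kb with flanks of 20 kb, and Sct (H3K9ac) -0.29 kb in the upper 0.5 by score. The Neurog3 difference was 0.43 kb for H3K9ac with flanks of 100 kb and 0 for H3K27ac with flanks of 20 kb. Apart from the values given here, 37 values over all members under these alternatives, and 47 with lists left out, kept their sign or were 0, and counts of regions stayed within 1.5 times. With the list number as a replicate block the differences are the same by construction, and the smallest exact permutation p becomes 0.125. It was reached for Neurog3 (both marks), Tph1, Sct, Neurod1 and Cck, while Chga gave 0.375. For H3K9ac, lists of the same number did not deviate together in every pair of groups (r from -0.096 to 0.58 over genes). The depth behind the lists is unknown, so a missing peak does not show that a mark is absent.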

Other observations

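The base composition of the promoters varied among the members. The ratio of observed to expected CpG in the 250 bases before a start site was above 0.75, a value chosen after the data were seen, at Neurod1, Chgb, the second start site of Tph1, and Sct. Among all 6461 promoters above that ratio 59.7% had H3K27ac in all 8 lists, and among the 14802 at or below it 22.5%. Of the 4 CpG-rich promoters of members, Sct (ratio 0.77) was the only one marked in all 8 lists; Neurod1 (0.84) was marked in 1, and Chgb (0.80) and Tph1 (0.92) in none. Chga, without H3K27ac at its start in any list, lay close below the chosen value at 0.71, and Sct close above it. Gip had the lowest ratio, 0.061.

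Among the genes of other cell types, 3 were marked at a gene end in at least 3 more Fast than Fed lists. Ptprc, the leukocyte marker CD45, had H3K27ac in 0 Fed and 4 Fast lists. Agr2, a goblet cell protein-folding enzyme, had H3K9ac in 1 Fed and 4 Fast lists, and Tubb3, a neuronal tubulin, in 0 Fed and 3 Fast lists. Over all genes, 0.841% for H3K27ac and 1.04% for H3K9ac were marked in at least 3 more Fast than Fed lists, so these 3 genes are given as values and show nothing particular to their cell types.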
